A study of Mus musculus with 6 samples.

Results

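Cytosolic ribosomal protein genes were followed in the livers of male mice of the inbred strain C57BL/6J fed a high-fat diet. One group received ONX-0914, a compound that inhibits PSMB8 (a catalytic subunit of the immunoproteasome), given subcutaneously at 10 mg/kg on alternate days over 6 weeks, and the other received vehicle. Both groups share the diet, so no liver from a lean animal stands beside them, and the sources used here do not give the age of the mice. Liver RNA enriched for mRNA was sequenced in 6 libraries, ONX-0914 1, 3 and 4 and vehicle 1, 2 and 4. The design text gives 2 animals per group, whereas 3 libraries per group were deposited, so p-values here reflect the spread among libraries, which may be technical. ONX-0914 livers and vehicle livers below stand for these libraries, which may not all come from separate animals, and each SD is over libraries. A gene was counted as a member when its symbol begins with Rpl or Rps and a digit, or with Rplp or Rpsa, which left out the ribosomal S6 kinases and symbols that contain -ps. The rule used names only and found 90 of the 22851 genes in the matrix. Of these, 46 encode proteins of the large subunit and 31 proteins of the small subunit, and 12 were classed as copies or paralogs of those. The remaining 1, Rps19bp1, encodes a protein that binds RPS19 and is no part of the ribosome. Values are FPKM, fragments scaled by transcript length and by library size, and 86 of the 90 members exceeded 1 FPKM in at least 3 libraries and were tested. The 4 others are Rpl3l, Rpl10l, Rpl32l and Rpl39l, so all 77 subunit genes were tested.

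The cytosolic ribosome joins a small subunit, which reads the mRNA, with a large subunit, which forms peptide bonds and passes the new chain through an exit tunnel. Its protein genes are transcribed at high rates in nearly every cell, and hepatocytes, which secrete most plasma proteins, hold many ribosomes. In mammals the mRNAs of these genes begin with a C followed by a run of pyrimidines, the 5′ terminal oligopyrimidine (TOP) tract, through which mTORC1 and LARP1 control their translation and stability. A TOP mRNA can thus change its use by ribosomes without a change in its level, and the libraries measured only levels.

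The start of transcription is the sequence that these genes are known to share, and it is shown here for 11 members, some with and some without the TOP-like run both among genes that rose and among genes below their vehicle level. Each window runs from 40 bases before the RefSeq start to 20 bases after it, 5′ to 3′ on the gene's strand. Rpl35a and Rpl34 have further RefSeq starts, and for each the start with the longest run is shown. The other starts of Rpl35a have no run, and that of Rpl34 has a run of 6 bases. Capitals mark the longest run of a C and at least 4 further pyrimidines within 10 bases on either side of the start.

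Rpl13a, chr7:45128726-45128785, minus strand: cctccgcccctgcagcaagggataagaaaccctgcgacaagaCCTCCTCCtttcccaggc

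Rpl35a, chr16:33056442-33056501, plus strand: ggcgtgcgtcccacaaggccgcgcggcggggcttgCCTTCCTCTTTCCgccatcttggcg

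Rpl12, chr2:32961672-32961731, plus strand: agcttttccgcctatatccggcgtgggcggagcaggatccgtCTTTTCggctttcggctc

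Rpl34, chr3:130730318-130730377, minus strand: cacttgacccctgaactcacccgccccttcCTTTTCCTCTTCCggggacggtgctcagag

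Rps27, chr3:90213629-90213688, minus strand: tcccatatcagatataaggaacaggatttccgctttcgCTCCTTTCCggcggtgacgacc

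Rpl27a, chr7:109519155-109519214, plus strand: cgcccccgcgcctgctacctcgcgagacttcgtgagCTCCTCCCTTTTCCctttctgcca

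Rps6, chr4:86857348-86857407, minus strand: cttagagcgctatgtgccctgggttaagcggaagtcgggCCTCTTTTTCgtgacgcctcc

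Rps25, chr9:44407674-44407733, plus strand: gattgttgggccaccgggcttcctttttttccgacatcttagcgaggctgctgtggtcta

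Rpl7a, chr2:26910767-26910826, plus strand: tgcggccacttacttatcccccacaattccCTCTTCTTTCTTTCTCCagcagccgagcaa

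Rplp0, chr5:115559427-115559486, plus strand: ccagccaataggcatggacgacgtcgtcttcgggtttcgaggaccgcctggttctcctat

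Rpl4, chr9:64173347-64173406, plus strand: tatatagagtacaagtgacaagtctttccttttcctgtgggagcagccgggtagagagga

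The windows come from RefSeq on GRCm38.p6, whose table of promoters (250 bases before to 50 after each start) matched 69 of the 90 members. Such a run near at least 1 annotated start was found for 37 of the 69 members (53.6%) and for 31.2% of the 8594 other tested genes in the table. The shorter run CTTTCC, searched on the gene's strand in the same 20 bases, was present in 14.5% of the members and in 0.954% of these other tested genes. CTTTTC, which can overlap the longer runs too, was present in 4.35% of the members and in 0.71% of the other tested genes. In Rps25, Rplp0 and Rpl4 no run of this kind lies in the searched bases, and in Rps25 and Rpl4 a pyrimidine run lies mostly before them. CCGGAAGT, a form of the site bound by GABP and other ETS factors, was searched on both strands of the whole promoter and occurred in 17.4% of the members, 9.51% of the other tested genes and 4.31% of all 27025 genes of the table. AAGATGGC, the core of YY1 sites, occurred in 8.70% of the members and 5.53% of the other tested genes. TATAAA, the TATA box, occurred in 11.6% of the members, 9.24% of the other tested genes and 15.7% of all genes, so the order depended on the genes compared. A gene with several annotated starts was counted once if any of them matched, and a match of letters is a description, not a bound site. Of the members called higher below, 8 of the 11 with a window had the start run, as did 26 of the 54 that were tested and not called. Rps25, Rps15 and Rpl27 rose without it in the searched bases, and Rpl7a, Rps2 and Rps26, below 0 as deposited and above 0 scaled by median ratio, have it.

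Ribosomal protein mRNAs were among the abundant transcripts of every library. In ONX-0914 1, 3 and 4 the 90 members made up 8.21%, 6.16% and 8.51% of all FPKM, whereas in vehicle 1, 2 and 4 they made up 5.40%, 6.51% and 6.66%. The shares averaged 7.63% ± 1.28 in ONX-0914 libraries and 6.19% ± 0.688 in vehicle libraries (SD, n = 3 libraries each), and ONX-0914 3 lay within the vehicle range. Rpl41 was the most abundant member. Without it the shares were 6.54%, 5.05% and 5.93% in ONX-0914 livers and 4.53%, 5.01% and 4.81% in vehicle livers, and the groups then did not overlap, with ONX-0914 3 just above vehicle 2. The median subunit gene had 790.6, 594 and 777 FPKM in ONX-0914 1, 3 and 4, against 529.9, 617.5 and 587 FPKM in vehicle 1, 2 and 4. ONX-0914 1 and 4 were thus above all vehicle livers, and ONX-0914 3 lay among them.

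FPKM sums ran from 1041391 to 1247789 in ONX-0914 livers and from 993264 to 1074027 in vehicle livers. No read totals were used, so the absolute depth is unknown. Ratios of low values gave depths of 0.866 to 1.02 for ONX-0914 libraries and 1.00 to 1.299 for vehicle libraries, relative to vehicle 1. Most genes had lower values in ONX-0914 livers: 4673 of the 10743 tested genes were called lower (43.5%) and 275 higher (2.56%), with a median log2 fold change of -0.64. ONX-0914 3 stood apart, with a median deviation from the vehicle mean of -0.38 over all tested genes, against -0.74 and -0.79 in ONX-0914 1 and 4. A call here and below is an adjusted p under 0.05 from limma on log2(FPKM + 1), with Benjamini-Hochberg adjustment over all tested genes, and fold changes are on that scale.

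Against this downward background the ribosomal protein genes were mostly at or above their vehicle levels. Of the 86 tested, 14 rose (16.28%, where 2.56% of all tested genes did) and none fell, where 43.5% of all tested genes did. By the unadjusted test, 32 were higher and 0 lower at p under 0.05. The share of all tested genes at that threshold was not worked out, so these counts cannot be set against a background. The 72 not called included 57 with a log2 fold change above 0 and 15 with one below 0. The median log2 fold change of the members was 0.35, with a range of -0.71 to 1.13, where the median of all tested genes was -0.64. In 35 members every ONX-0914 liver was above every vehicle liver, and in 4 every one was below. Of all tested genes 4.93% had no overlap in the higher direction and 53.5% in the lower one. The large and the small subunit gave nearly the same picture, with 8 of 46 genes called higher and a median of 0.35 for the large subunit, and 4 of 31 called and a median of 0.35 for the small subunit.

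How many of them passed depended on how the libraries were scaled and on single libraries. After scaling by median ratio, in which a library's scale is the median, over tested genes, of its ratio to the geometric mean, the median of all tested genes was -0.01, a shift of 0.62 on the log2 scale. Then 68 of the 86 members were called higher (13.8% of all tested genes were) and none lower (14.2% were), and the members' median was 1.15. Without ONX-0914 3, 44 members were called higher (6.89% of all genes were) and 2 lower (60.6% were), at a median of 0.47. ONX-0914 3 alone against the vehicle livers gave 1 call higher (2.88% of all genes) and none lower (27.9%), at a median of 0.08, with the lone library assumed to vary as the vehicle livers do. With the replicate number as a block 34 were called higher (5.62% of all genes) and 2 lower (55.6%). Numbers 2 and 3 each occur in 1 library, so vehicle 2 and ONX-0914 3 did not enter the group difference of this fit. It rests on libraries 1 and 4 of each group. Leaving out ONX-0914 1, ONX-0914 4 or vehicle 1 left 1 member called higher each, near the 1.31%, 1.25% and 0.856% of all tested genes called in these fits. Leaving out vehicle 2 or vehicle 4 left 3 each, where 1.15% and 1.03% of all genes were called. With each of ONX-0914 1, ONX-0914 4 and vehicle 1 left out, and with ONX-0914 3 alone, the call that remained was Rpl6l, which was called in all 17 settings in which its log2 fold change was fitted. It shares reads with Rpl6, as given below.

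**Figure D1:**
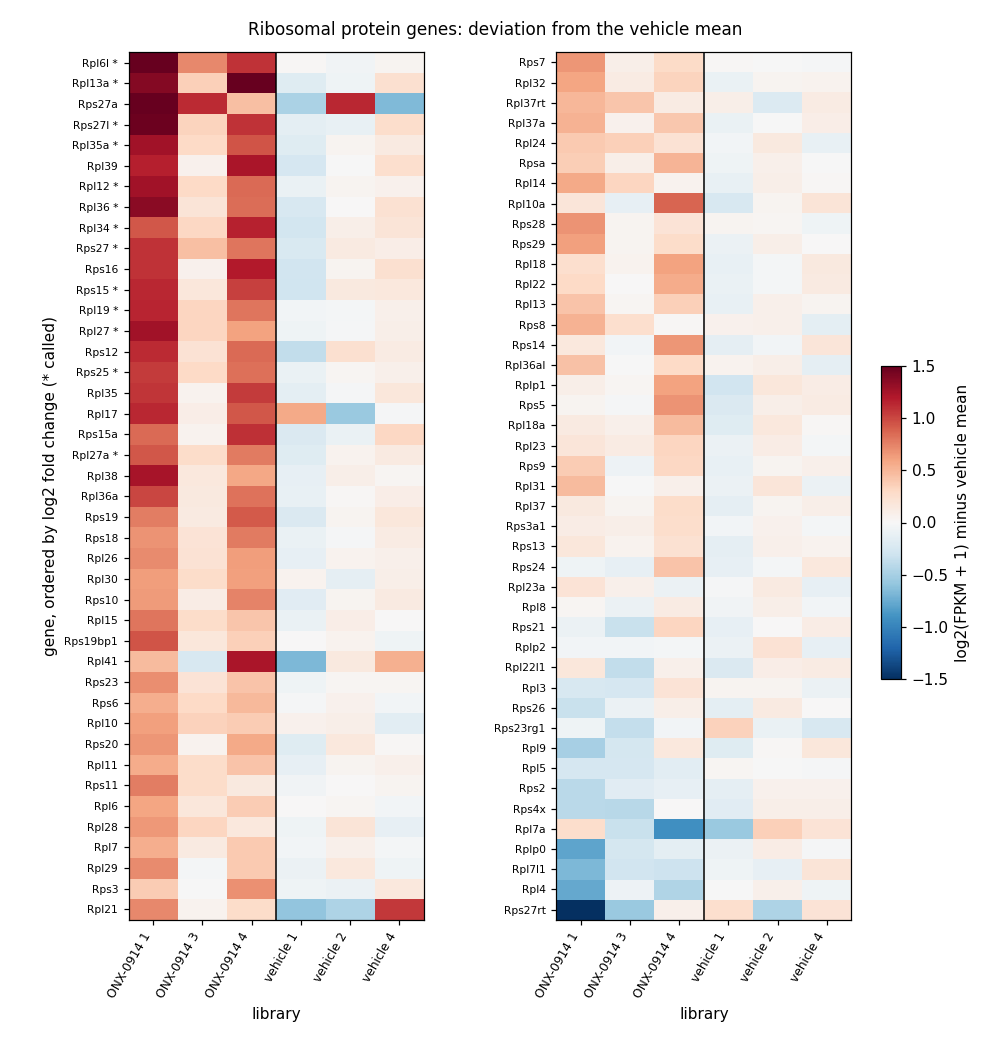
Each row is a tested member (85 of the 86 are shown), ordered by log2 fold change and split over 2 panels, and each column is a library, with ONX-0914 1, 3 and 4 left of the line and vehicle 1, 2 and 4 right of it. Colour gives log2(FPKM + 1) minus the mean of the vehicle libraries as deposited, and a star marks a call. ONX-0914 1 and 4 are the darkest columns of the upper rows, ONX-0914 3 is paler, and the last rows, from Rpl5 to Rps27rt, are blue in most ONX-0914 libraries; after scaling by median ratio none of the 86 is below 0.

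Rpl13a had the largest rise among the subunit genes. It encodes a large-subunit protein that is also part of the GAIT complex, which in human myeloid cells blocks the translation of inflammatory mRNAs. It measured 3871, 1902 and 4332 FPKM in ONX-0914 1, 3 and 4, against 1316, 1424 and 1756 FPKM in vehicle 1, 2 and 4. All ONX-0914 livers were above all vehicle livers, ONX-0914 3 by the smallest margin. The log2 fold change was 1.09 (limma, SE 0.31, adjusted p = 0.0203), and 1.89 after scaling by median ratio.

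Rpl35a encodes a large-subunit protein whose loss causes Diamond-Blackfan anaemia in humans. It measured 1723, 882 and 1378 FPKM in ONX-0914 1, 3 and 4, against 632, 740.1 and 788 FPKM in vehicle 1, 2 and 4, a log2 fold change of 0.83 (limma, SE 0.26, adjusted p = 0.0278). The groups did not overlap. Rpl12, whose protein lies at the base of the large subunit's stalk, measured 1683, 867 and 1265 FPKM in ONX-0914 livers, against 657, 722 and 734 FPKM in vehicle livers, a log2 fold change of 0.80 (limma, SE 0.25, adjusted p = 0.0285). Its lowest ONX-0914 liver, ONX-0914 3, was above the highest vehicle liver.

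Of the other large-subunit genes that rose, Rpl34 measured 734, 478 and 859 FPKM in ONX-0914 livers, against 318, 409 and 443 FPKM in vehicle livers (log2 fold change 0.80, SE 0.25, adjusted p = 0.0304). Rpl19, whose protein takes part in a bridge between the subunits, measured 1559.9, 884 and 1237 FPKM in ONX-0914 livers, against 689, 689.8 and 743 FPKM in vehicle livers (log2 fold change 0.76, adjusted p = 0.0263). In both the groups did not overlap. Rpl36 measured 1292, 577 and 899.7 FPKM in ONX-0914 livers, against 428, 507 and 589 FPKM in vehicle livers, so ONX-0914 3 lay below vehicle 4 although the gene was called (log2 fold change 0.80, adjusted p = 0.0483). Rpl27 and Rpl27a had log2 fold changes of 0.73 and 0.66 (limma, adjusted p = 0.0382 and 0.0381), without overlap.

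Among small-subunit genes, Rps27, whose protein holds a zinc finger, measured 481, 309.97 and 398 FPKM in ONX-0914 livers, against 193, 250.3 and 242 FPKM in vehicle livers. The groups did not overlap, at a log2 fold change of 0.78 (limma, SE 0.22, adjusted p = 0.0196). Rps25, whose protein is needed for initiation at several viral internal entry sites, measured 2147, 1274 and 1838 FPKM in ONX-0914 livers, against 965, 1055 and 1093 FPKM in vehicle livers (log2 fold change 0.73, adjusted p = 0.0293). Rps15 had a log2 fold change of 0.77 (limma, adjusted p = 0.0479). It stood at 1181 FPKM in ONX-0914 3, next to 1172 FPKM in vehicle 4, its nearest vehicle liver.

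**Figure D2:**
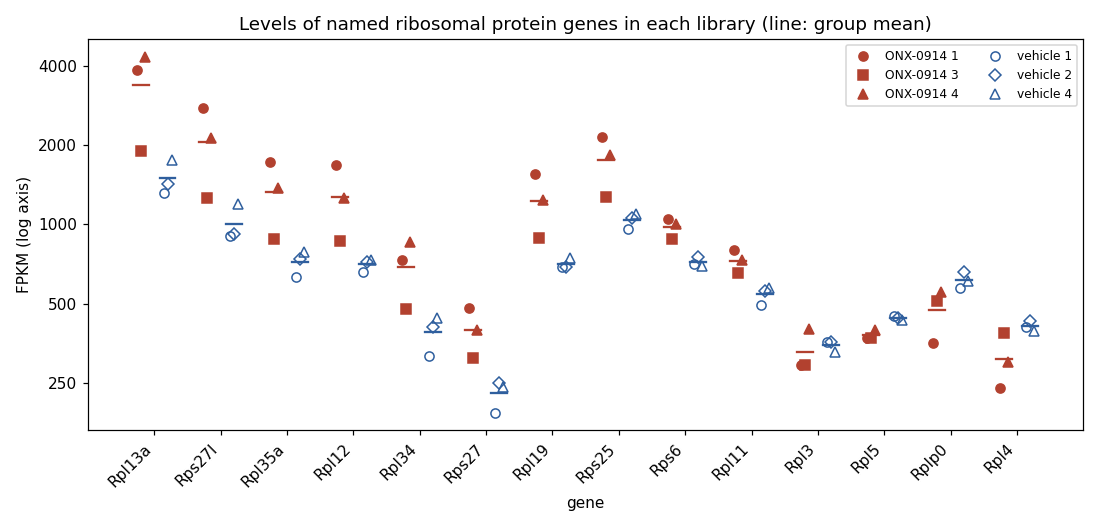
The vertical axis gives FPKM on a log scale for 14 members, with filled red symbols for ONX-0914 1, 3 and 4 on the left of each gene, open blue symbols for vehicle 1, 2 and 4 on the right, and a short line at each group's mean. From Rpl13a to Rps25 all red symbols lie above all blue ones and the red square, ONX-0914 3, is the lowest of its group; for Rpl5, Rplp0 and Rpl4 all lie below, an order that turns round after scaling by median ratio.

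None of the genes of the stalk, which recruits the elongation factors, was called as deposited. Rplp0, the stalk's base, measured 355, 510.2 and 553 FPKM in ONX-0914 1, 3 and 4, against 575, 661 and 608 FPKM in vehicle 1, 2 and 4. Every ONX-0914 liver was below every vehicle liver, but the log2 fold change of -0.40 (limma, SE 0.22, adjusted p = 0.149) did not pass. Scaled by median ratio it was 0.40. Rplp1 had 1076, 1030.3 and 1536 FPKM in ONX-0914 livers and 831, 1137 and 1091 FPKM in vehicle livers, and its groups overlapped, at a log2 fold change of 0.24 (limma, adjusted p = 0.401). Rplp2 had 304, 306 and 307.5 FPKM in ONX-0914 livers and 295, 366 and 288 FPKM in vehicle livers, a log2 fold change of -0.04 (limma, adjusted p = 0.872). Under median-ratio scaling Rplp1 and Rplp2 were both called higher, at 1.04 and 0.76 (adjusted p = 0.0465 and 0.0453).

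The lowest log2 fold change of a subunit gene was that of Rpl4. This gene has the longest coding sequence among the subunit genes and encodes a protein that lines the exit tunnel. It measured 239.98, 388 and 300.5 FPKM in ONX-0914 livers, against 407, 431 and 392 FPKM in vehicle livers. The groups did not overlap, though ONX-0914 3 came within 3.99 FPKM of vehicle 4. Its log2 fold change was -0.43 (limma, SE 0.21, adjusted p = 0.124), -0.61 without ONX-0914 3 (limma, adjusted p = 0.0123) and 0.37 after scaling by median ratio. Rpl3, near the peptidyl transferase centre, measured 293, 291 and 401 FPKM in ONX-0914 livers and 357, 358 and 327 FPKM in vehicle livers, a log2 fold change of -0.10 (limma, adjusted p = 0.702) and of 0.70 under median-ratio scaling. Rpl7a, a large-subunit gene named after its values were seen, measured 189, 125 and 83.0 FPKM in ONX-0914 livers and 107, 202 and 182 FPKM in vehicle livers. Its groups overlapped, at a log2 fold change of -0.33 (limma, adjusted p = 0.431), or 0.46 under median-ratio scaling.

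Rpl5 and Rpl11 form a particle with 5S rRNA that joins the large subunit and, when free, binds MDM2. Rpl11 measured 797, 654 and 731 FPKM in ONX-0914 livers, against 495, 559 and 573 FPKM in vehicle livers, a log2 fold change of 0.42 (limma, SE 0.18, adjusted p = 0.0839). Rpl5 measured 370.2, 372 and 397 FPKM in ONX-0914 livers, against 450.1, 439.6 and 435 FPKM in vehicle livers, a log2 fold change of -0.22 (limma, SE 0.17, adjusted p = 0.308) and of 0.58 after scaling by median ratio. Neither pair of groups overlapped and neither gene passed, with Rpl11 above its vehicle livers and Rpl5 below them as deposited.

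Rps6, whose protein is phosphorylated by the S6 kinases downstream of mTORC1, measured 1050.3, 881 and 1001 FPKM in ONX-0914 livers, against 706, 750.5 and 695 FPKM in vehicle livers. All ONX-0914 livers were higher, at a log2 fold change of 0.44 (limma, SE 0.18, adjusted p = 0.0675). Rps3, at the mRNA entry site, and Rpsa, also known as the laminin receptor, had log2 fold changes of 0.35 and 0.32 (limma, adjusted p = 0.212 and 0.188). Rps4x, encoded on the X chromosome, had one of -0.27 (limma, adjusted p = 0.28), or 0.53 after scaling by median ratio. Rpl10, which completes the large subunit late in its maturation, had one of 0.44 (limma, adjusted p = 0.0788).

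Rps27a makes a fusion of ubiquitin with a small-subunit protein and had the largest standard error of the 77 subunit genes. It measured 559.8, 410.4 and 257 FPKM in ONX-0914 1, 3 and 4, against 135, 413 and 119 FPKM in vehicle 1, 2 and 4. Vehicle 2 was as high as ONX-0914 3, so the groups overlapped, at a log2 fold change of 1.05 (limma, SE 0.46, adjusted p = 0.0873). Fau, a ubiquitin-like fusion that carries a ribosomal protein under a name outside the rule, had a log2 fold change of 0.61 (limma, adjusted p = 0.0566). Rack1, a small-subunit scaffold protein also outside the rule, measured 869.6, 493 and 766 FPKM in ONX-0914 livers, against 394, 467 and 415 FPKM in vehicle livers, and rose (log2 fold change 0.70, adjusted p = 0.038).

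The most abundant member was Rpl41, which encodes the smallest ribosomal protein. It reached 19082, 11621 and 32194 FPKM in ONX-0914 1, 3 and 4, against 8649, 15158 and 19819 FPKM in vehicle 1, 2 and 4. The groups overlapped and the spread was wide in both, at a log2 fold change of 0.49 (limma, SE 0.42, adjusted p = 0.351). Rps15, Rps24 and Rps27l were also among the 5 highest with Rpl13a, and Rps24 averaged 1737 ± 386 FPKM in ONX-0914 livers and 1621 ± 166 FPKM in vehicle livers (SD, n = 3 each; log2 fold change 0.08, adjusted p = 0.767). Rpl39, which encodes a short protein of the exit tunnel, measured 1937, 906 and 2019 FPKM in ONX-0914 livers and 725, 861 and 1032 FPKM in vehicle livers. It just missed the threshold (limma, log2 fold change 0.82, adjusted p = 0.0575).

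Several members serve as reference genes in liver PCR. Rps18 measured 1612, 1171 and 1734 FPKM in ONX-0914 livers, against 942, 997 and 1102 FPKM in vehicle livers, a log2 fold change of 0.55 (limma, SE 0.21, adjusted p = 0.0566). Set beside Rpl13a at 1.09 and Rplp0 at -0.40, the 3 reference genes had log2 fold changes that spanned 1.49. The order Rpl13a, Rps18, Rplp0 was kept after scaling by median ratio, at 1.89, 1.35 and 0.40.

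Copies and paralogs were less uniform than the subunit genes. Of the 12, 8 were tested and 2 rose, Rpl6l and Rps27l, with a median log2 fold change of 0.10. Rps27l encodes a close relative of RPS27 and is known as a p53 target. It measured 2763, 1256 and 2125 FPKM in ONX-0914 1, 3 and 4, against 900.0, 922 and 1198 FPKM in vehicle 1, 2 and 4, without overlap (log2 fold change 0.96, SE 0.29, adjusted p = 0.0252). In every library it exceeded Rps27 per length, by 5.75, 4.05 and 5.34 times in ONX-0914 livers and 4.66, 3.69 and 4.94 times in vehicle livers, so the ranges of the ratio overlapped. The coding sequences of both are shown because their likeness decides whether reads can be told apart, with capitals at the bases of Rps27l unlike Rps27.

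Rps27, chr3:90212522-90213651, minus strand: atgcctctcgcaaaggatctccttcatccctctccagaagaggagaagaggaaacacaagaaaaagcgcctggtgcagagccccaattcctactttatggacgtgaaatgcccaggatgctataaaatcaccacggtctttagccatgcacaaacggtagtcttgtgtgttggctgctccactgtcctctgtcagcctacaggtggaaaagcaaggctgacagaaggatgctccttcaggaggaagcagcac

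Rps27l, chr9:66946086-66949516, plus strand: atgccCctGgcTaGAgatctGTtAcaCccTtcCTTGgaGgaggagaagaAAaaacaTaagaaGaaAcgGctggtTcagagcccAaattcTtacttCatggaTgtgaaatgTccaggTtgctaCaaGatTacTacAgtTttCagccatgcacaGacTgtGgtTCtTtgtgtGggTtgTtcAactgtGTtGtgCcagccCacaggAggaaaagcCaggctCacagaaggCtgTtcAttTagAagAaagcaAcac

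The sequences and gene spans are from GENCODE M21 on GRCm38. Over 252 bases Rps27l differs from Rps27 at 60 (76.2% identity), and no stretch of a read's length (150 bases) is shared. Rps27rt, a retrogene on chromosome 9, has the coding sequence of Rps27 unchanged, and 192 of its 225 stretches of that length are found in Rps27 too, so the 2 values depend on how the authors' counting assigned shared reads. Rps27rt measured 35.9, 77.7 and 120.5 FPKM in ONX-0914 livers, against 136, 83.0 and 132 FPKM in vehicle livers (log2 fold change -0.71, adjusted p = 0.169; 0.08 after scaling by median ratio). Summed, Rps27 and Rps27rt gave 517, 388 and 519 FPKM in ONX-0914 livers, against 329, 333 and 375 FPKM in vehicle livers, and the sums did not overlap.

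Rpl6l, annotated as a processed pseudogene with 98.7% identity to Rpl6, measured 54.9, 29.6 and 38.1 FPKM in ONX-0914 livers, against 17.8, 16.8 and 18.0 FPKM in vehicle livers. The groups did not overlap (log2 fold change 1.13, SE 0.26, adjusted p = 0.00812), but 240 of its 722 read-length stretches occur in Rpl6, so its value is uncertain. Rpl6 itself had a log2 fold change of 0.38 (limma, adjusted p = 0.122), and Rpl6l stood at 0.0784, 0.0570 and 0.0635 of it in ONX-0914 livers and 0.0384, 0.0354 and 0.0399 in vehicle livers. Rpl37rt, a transcribed pseudogene with 99.7% identity to Rpl37, shares 107 of its 533 stretches with it and had a log2 fold change of 0.35 (limma, adjusted p = 0.186).

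The paralogs with sequences of their own shared no stretch of read length with their relatives. Rpl36al stood at 0.9205, 1.22 and 0.946 of Rpl36a in ONX-0914 livers, against 1.53, 1.42 and 1.15 in vehicle livers, with log2 fold changes of 0.24 for Rpl36al (limma, adjusted p = 0.322) and 0.65 for Rpl36a (limma, adjusted p = 0.0507). Rpl7l1, a paralog of Rpl7 whose relative in yeast is an assembly factor of the large subunit, measured 59.6, 77.95 and 76.6 FPKM in ONX-0914 livers, against 91.1, 87.4 and 109 FPKM in vehicle livers. It was lower in all ONX-0914 livers without passing (log2 fold change -0.42, adjusted p = 0.112) and was at 0.37 after scaling by median ratio. Rpl7 had a log2 fold change of 0.36 (limma, adjusted p = 0.14). Rpl22l1 had one of -0.04 (limma, adjusted p = 0.881) and Rpl22 one of 0.29 (limma, adjusted p = 0.257).

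The least abundant members were the 4 not tested and Rps23rg1, which averaged 9.66 ± 1.24 FPKM in ONX-0914 livers and 10.96 ± 2.64 FPKM in vehicle livers (SD, n = 3 each). Rps23rg1 was classed with the copies, but it aligned with the coding sequence of Rps23 over only 38 bases, at 71.1% identity. Whether it encodes a ribosomal protein is thus uncertain here. Rpl10l, the testis paralog of Rpl10, was listed at 0 in all 6 libraries. Rpl3l, the paralog of Rpl3 that striated muscle uses, was listed at 0 in ONX-0914 1 and 3 and at 0.06 FPKM in ONX-0914 4, against 0 in vehicle 1, 0.09 in vehicle 2 and 0.15 in vehicle 4. Rpl39l reached 1.5 FPKM in ONX-0914 3 and 0.77 FPKM in vehicle 4 at most, and Rpl32l 0.37 FPKM in ONX-0914 4 and 1.01 FPKM in vehicle 1. Rps19bp1, whose protein is no part of the ribosome, measured 60.8, 35.01 and 40.3 FPKM in ONX-0914 livers, against 31.3, 32.4 and 29.7 FPKM in vehicle livers (log2 fold change 0.49, adjusted p = 0.122).

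The log2 fold change of a subunit gene was related to its length. Spearman's coefficient between coding length and log2 fold change was -0.36 across the 77 subunit genes, and -0.17 across 10531 other tested genes, with all genes measured in the same 6 libraries and thus no independent replicates. It was -0.13 for ONX-0914 3 alone against the vehicle livers and -0.38 without ONX-0914 3. Under 400 coding bases the 25 subunit genes had a median log2 fold change of 0.49 with 5 called higher, against -0.07 for 615 other genes, of which 54 were called (8.78%). From 400 to under 600 bases the median was 0.41 in 30 subunit genes, 6 of them called, against -0.38 in 910 others, of which 39 were called (4.29%). From 600 bases on it was 0.27 in 22 subunit genes, where Rpl13a was the 1 called, against -0.69 in 9006 others, of which 163 were called (1.81%). The subunit medians were thus above those of other genes in each band, by 0.56, 0.79 and 0.96 on the log2 scale, and no test was made of these gaps.

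**Figure D3:**
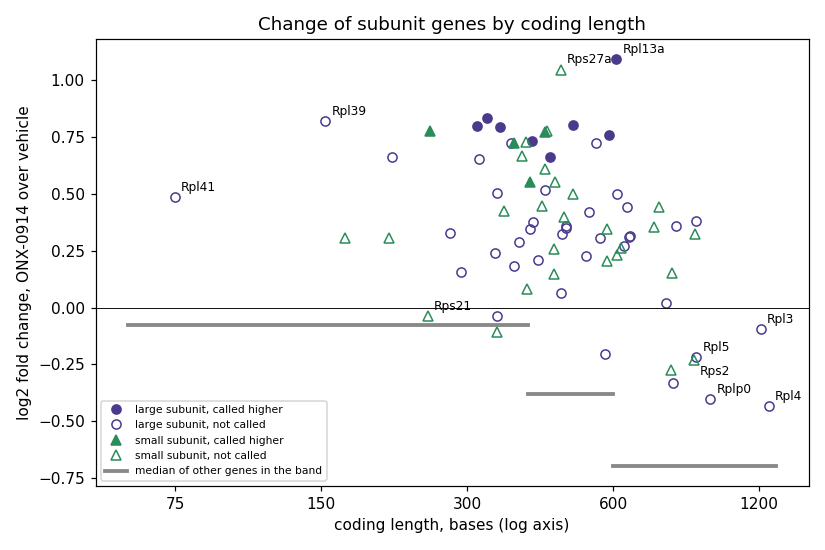
Each point is 1 of the 77 subunit genes, with coding length in bases on a log axis against log2 fold change, ONX-0914 over vehicle as deposited; circles are large-subunit and triangles small-subunit genes, filled where called. Grey bars give the median of other tested genes under 400, from 400 to under 600 and from 600 coding bases on; most points lie above their bar, and the points below 0 at the right include Rpl4, Rplp0 and Rpl5, all above 0 after scaling by median ratio.

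The same bands were followed in each library. In the band from 600 bases on, the subunit genes had median deviations from the vehicle mean of 0.32, 0.01 and 0.31 in ONX-0914 1, 3 and 4, where other genes had -0.81, -0.40 and -0.87. In ONX-0914 3 the long subunit genes were thus at the vehicle level and the other long genes below it. Among subunit genes under 400 bases the deviations were 0.66, 0.05 and 0.60 in ONX-0914 1, 3 and 4. The SD of the deviations across the 77 subunit genes came to 0.51, 0.22 and 0.41 for ONX-0914 1, 3 and 4, whereas vehicle 1, 2 and 4 had 0.16, 0.17 and 0.18. The vehicle libraries make up the mean that was subtracted, so their SDs come out smaller and the groups are not measured alike. Within the ONX-0914 group, the subunit genes differed more among themselves in ONX-0914 1 and 4 than in ONX-0914 3.

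**Figure D4:**
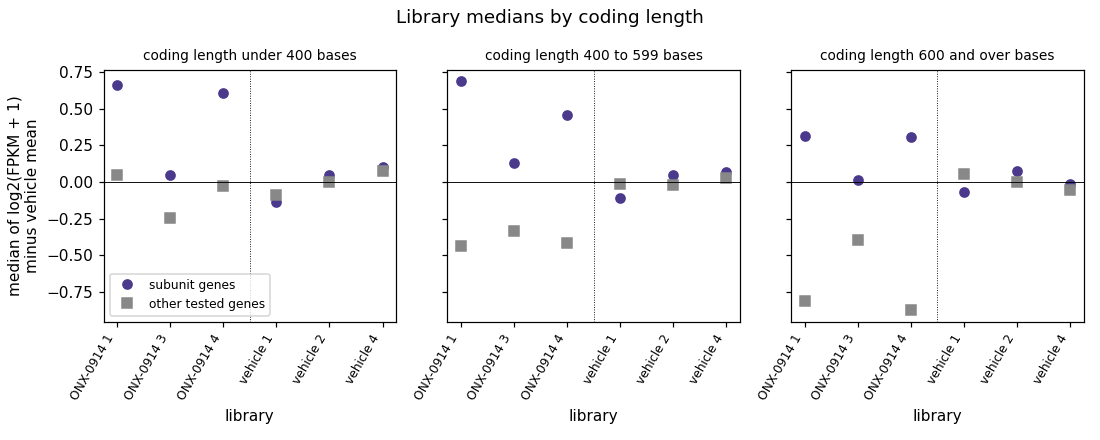
Median deviation of log2(FPKM + 1) from the vehicle mean in each library, ONX-0914 1, 3 and 4 left of the dotted line and vehicle 1, 2 and 4 right of it, for subunit genes (circles) and other tested genes (squares) in 3 bands of coding length. Circles lie above squares in all ONX-0914 libraries and bands, and from 600 bases on ONX-0914 1 shows 0.32 for subunit genes and -0.81 for other genes.

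Removing each library's trend over transcript length, smoothed over tested genes other than the members, left a median of 0.36 for the members with 18 called higher (9.62% of all tested genes were) and none lower (11.4% were). The median of all tested genes moved from -0.64 as deposited to 0.03, so the members stood less far above it. Spearman's coefficient with coding length was then -0.02 across the subunit genes. Of the 14 genes called as deposited, 9 were among the 18. A trend over coding length in place of transcript length left a median of 0.75 with 51 called (12.2% of all genes were), among them all 14. All tested genes had a median of 0.02 in that setting. The coefficient was then 0.21, of the opposite sign.

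Genes of 2 other groups of nuclear-encoded complexes were set beside the members. Of 78 mitochondrial ribosomal protein genes, 5 rose and 4 fell, with a median log2 fold change of -0.01. Of 89 tested genes of the respiratory chain and ATP synthase, 5 rose and 5 fell, with a median of 0.24, next to 0.35 for the cytosolic members. Of all tested genes 2.56% rose and 43.5% fell. Scaled by median ratio the medians were 1.15 for the cytosolic members, 0.78 for the mitochondrial ribosome and 1.03 for the respiratory chain. There 68 of 86, 36 of 78 and 60 of 89 genes of these sets were called higher (13.8% of all tested genes were), and 0, 0 and 1 lower (14.2% were). With the trend over transcript length removed the medians were 0.36, 0.35 and 0.21, and with the trend over coding length removed 0.75, 0.49 and 0.52. No test compared these sets.

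**Figure D5:**
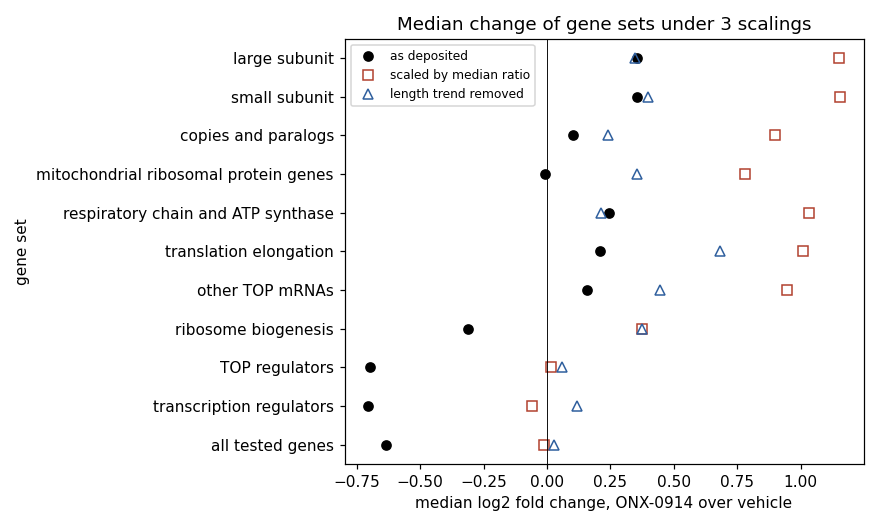
Median log2 fold change, ONX-0914 over vehicle, of the cytosolic ribosomal protein classes and of other gene sets, as deposited (black circles), scaled by median ratio (red squares) and with the transcript-length trend removed (blue triangles). Both subunits lie at 0.35 as deposited and at 1.15 scaled by median ratio; ribosome biogenesis lies at -0.31 as deposited and at 0.37 scaled by median ratio, and TOP regulators lie at -0.70 as deposited and near 0, like all tested genes, under the other settings.

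Genes that act with the ribosome did not move as one. None of the 6 elongation factor genes was called, at a median log2 fold change of 0.21 (1.01 under median-ratio scaling). Of 10 other mRNAs with a TOP tract, none rose and 2 fell (43.5% of all tested genes fell). The 2 that fell were Eif4b, an initiation factor that aids the helicase eIF4A, with a log2 fold change of -1.21 (limma, adjusted p = 0.00694), and Hnrnpa1, a splicing regulator, also with -1.21 (limma, adjusted p = 0.00804). Scaled by median ratio neither was called, at -0.43 each, and 6 of the 10 were called higher (13.8% of all tested genes were). These 2 TOP mRNAs and the median of the members thus stood on opposite sides of 0 under both scalings.

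Of 13 regulators of TOP mRNAs 5 fell and none rose, where 43.5% of all tested genes fell. Eif4ebp2, a repressor of cap-dependent initiation that mTORC1 inactivates, measured 3.65, 5.80 and 1.84 FPKM in ONX-0914 1, 3 and 4, against 49.2, 42.3 and 44.3 FPKM in vehicle 1, 2 and 4. Every ONX-0914 liver, ONX-0914 3 included, was far below every vehicle liver, at a log2 fold change of -3.37 (limma, SE 0.32, adjusted p = 0.000927) or -2.67 under median-ratio scaling (limma, adjusted p = 0.00361). Rptor, the substrate-binding subunit of mTORC1, had a log2 fold change of -1.44 (limma, adjusted p = 0.00693) from 0.23, 1.82 and 0.51 FPKM in ONX-0914 livers, against 3.97, 3.87 and 3.30 FPKM in vehicle livers. Larp1, which binds the TOP tract, had one of -1.38 (limma, adjusted p = 0.00881), and -0.67 scaled by median ratio (limma, adjusted p = 0.0812).

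Of 43 ribosome biogenesis genes 1 rose and 3 fell, at a median of -0.31 as deposited, where 2.56% of all tested genes rose and 43.5% fell. Under median-ratio scaling the median was 0.37, and 13 rose and 1 fell, where 13.8% of all tested genes rose and 14.2% fell. Gnl3, nucleostemin, rose to 29.9, 40.6 and 20.6 FPKM in ONX-0914 livers, against 14.4, 15.4 and 17.7 FPKM in vehicle livers (log2 fold change 0.85, adjusted p = 0.0305). Dkc1, the pseudouridine synthase of rRNA, fell by 1.69 on the log2 scale (limma, adjusted p = 0.00386) and by 1.10 scaled by median ratio (limma, adjusted p = 0.0208). Rrn3, which brings RNA polymerase I to the rRNA genes, had a log2 fold change of -1.15 (limma, adjusted p = 0.0107), and Nmd3, the export adaptor of the large subunit, one of -0.74 (limma, adjusted p = 0.0364). Neither was called scaled by median ratio, at -0.60 for Rrn3 and 0.01 for Nmd3. Of 8 regulators of ribosomal protein gene transcription 3 fell, where 43.5% of all tested genes did. They were Gabpa, Sp1 and Max, at log2 fold changes of -1.95, -1.34 and -0.87 (limma, adjusted p = 0.00504, 0.0025 and 0.033). Gabpa, which encodes the DNA-binding subunit of GABP, was also called lower scaled by median ratio, at -1.33 (limma, adjusted p = 0.0233), as was Sp1, at -0.94 (adjusted p = 0.0154), while Max, at -0.13, was not.

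Liver is a mixture of cells, and in bulk RNA fewer cells of a type and less RNA per cell cannot be told apart. All 10 endothelial markers fell, where 43.5% of all tested genes did, with summed levels of 31.7 to 54.0 FPKM in ONX-0914 livers and 158 to 171 FPKM in vehicle livers. Of 8 Kupffer cell markers 5 fell, with sums of 583 to 968 FPKM in ONX-0914 livers against 1099 to 1695 FPKM in vehicle livers. Of 6 macrophage markers 5 fell (282 to 325 FPKM in ONX-0914 livers against 588 to 855 FPKM in vehicle livers), as did 5 of 7 stellate cell markers (58.1 to 127 FPKM against 251 to 321 FPKM). Of 10 hepatocyte markers 2 rose and 2 fell. Their sums were 102400 to 144700 FPKM in ONX-0914 livers and 108300 to 110900 FPKM in vehicle livers, so in sum they were abundant in every library. Apoa1 and Fgb rose, at log2 fold changes of 0.64 and 1.17, and Hnf4a and Cps1 fell, at -2.23 and -1.66. Hnf4a measured 6.26, 40.7 and 5.94 FPKM in ONX-0914 1, 3 and 4, against 58.5, 51.7 and 68.6 FPKM in vehicle 1, 2 and 4. Of 5 neutrophil markers 4 were tested and none was called. Their sums ran from 179 FPKM in ONX-0914 3 to 4328 FPKM in the highest ONX-0914 liver, against 293 to 1767 FPKM in vehicle livers. Under median-ratio scaling 8 of the 10 endothelial markers, 2 of the 8 Kupffer cell markers, 2 of the 6 macrophage markers and 4 of the 7 stellate cell markers were called lower. There 1 macrophage marker and 4 hepatocyte markers were called higher, and no hepatocyte marker lower. As deposited, of the 5 cholangiocyte markers 4 were tested and 1 fell. Of the lymphocyte markers, 3 of 6 for T and NK cells and 3 of 5 for B and plasma cells were tested. None of these or of the 5 erythroid markers was called. No marker of these lists was at 0 in all 6 libraries. The part of these cells in the levels of the ribosomal protein genes was not tested.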

How the data were processed

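Liver RNA libraries from 3 ONX-0914 and 3 vehicle samples were compared. The authors deposited one matrix of FPKM, with 2 decimals; the unit was read from the values, and the sources used here do not state the scaling. Per the submitters' processing notes, FastQC 0.11.5, cutadapt 1.11, HISAT2 2.0.1, featureCounts 1.6.0, edgeR and the builds GRCm38 and mm10 were used, with no role stated. Whether counting used strand or shared reads is not given either, so near-identical copies are uncertain.

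Genes above 1 FPKM in at least 3 libraries (10743) were tested on log2(FPKM + 1) in R 4.3.3 (limma 3.58.1; moderated variance with a trend; no block), with p-values adjusted over all of them by Benjamini-Hochberg. On this scale, changes of low genes come out too small. The script was first tested on simulated data. Single genes were not tested by permutation, since 3 libraries against 3 cannot go below an exact p of 0.1.

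The members, gene lists and alternatives were chosen with earlier results of these data known. A few items that the rule selects are not reported here. Genes named are the members called, the 5 highest and 5 lowest, members with a set role, ribosomal proteins outside the rule and, per other list, up to 3 called in each direction; members just outside a threshold or at an end of a range were named after their values were seen. Gas5, one of 11 TOP genes listed, was not analysed here. Length trends were lowess curves (span 0.3) of a library's deviations from the mean of the vehicle libraries over log2 length in GENCODE M21, fitted without the members (both such fits were added after the data were seen); 99.4% of tested genes had a transcript length and 98.81% a coding length. Comparison lists cover mitochondrial ribosome, respiratory chain, elongation, TOP mRNAs and regulators, biogenesis, transcription and cell type markers. Sequences were read with Biopython 1.88 in Python 3.11.15.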

Additional observations from a re-analysis of the deposited data

How the results depend on the processing

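The count of 14 ribosomal protein genes called higher was 12 with a pseudocount of 0.1, 15 in a robust fit, and 17 or 18 with the trend over transcript length removed (fitted with or without the members). It was 51 with a coding-length trend removed, 68 scaled by median ratio, 9 scaled to equal sums and 7 quantile normalized. Without a filter on low values it was 5, where 209 of all genes fitted were called higher. At a log2 fold change of at least 1 it was 2. Quantile normalized, 1118 of the 10743 tested genes were called higher, so the 7 of 86 members were not a larger share. Leaving out 1 library gave 1 to 44 called higher, 0 to 2 called lower, and a median log2 fold change of 0.28 to 0.47. The 44 came without ONX-0914 3, when Rpl4 and Rpl7l1 were the 2 called lower; each other omission gave 3 or fewer. Without a filter 1 member was called lower, Rpl32l, which is under 1 FPKM in most libraries. The members' median of 0.35 was above 0 in all settings run and was 0.079 with ONX-0914 3 alone, 0.75 with the coding-length trend removed and 1.15 scaled by median ratio.

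Of all tested genes, 275 were called higher and 4673 lower. Those higher were 1481 scaled by median ratio, 1118 quantile normalized, 1028 or 1034 with the transcript-length trend removed (with or without members in the fit), 1306 with the coding-length trend removed, 171 scaled to equal sums, 110 at a log2 fold change of at least 1, and 92 to 740 leaving out 1 library. Those lower were 1528 scaled by median ratio, 1334 quantile normalized, 1236 or 1220 and 1382 with those trends removed, 3062 at a log2 fold change of at most -1, 2992 with ONX-0914 3 alone, and 2590 to 6514 leaving out 1 library. The highest of both ranges came without ONX-0914 3. Rplp2 turned from -0.04 to a call at 0.76 scaled by median ratio, and Nmd3 turned from a call at -0.74 to 0.0085 scaled by median ratio and to 0.0854 or 0.0852 with the transcript-length trend fitted with or without the members. The cause of these moves was not tested. For lost calls with a library left out, fewer samples were fitted.

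Numbers 1 and 4 occur in both groups, and deviations of same-numbered libraries correlated at 0.00 and 0.13. Other pairs ran from -0.17 to 0.10. With 3 libraries per group these values cannot decide whether the samples were paired. With the replicate number as a block, 34 members were called higher and 2 lower (Rps27rt and Rpl4), at a median of 0.48, and of all genes 604 were called higher and 5973 lower. The group difference in this fit comes from numbers 1 and 4 alone, so it leaves out vehicle 2 and ONX-0914 3. Depth is unknown in absolute terms, so no counting error can be given, and members under 1 FPKM rest on few reads.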

Other observations

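Rows whose symbols contain -ps, which the rule leaves out, number 15 for ribosomal protein pseudogenes, and 4 of them passed the filter on low values. None was called. Rpl34-ps1 was the most abundant and measured 132, 79.7 and 169.5 FPKM in ONX-0914 libraries 1, 3 and 4, against 64.7, 99.4 and 100.6 FPKM in vehicle 1, 2 and 4, a log2 fold change of 0.48 (limma adjusted p = 0.207). Rpl17-ps8 measured 5.64, 2.60 and 6.45 FPKM in ONX-0914 livers, against 1.80, 2.44 and 3.38 FPKM in vehicle livers, a log2 fold change of 0.69 (adjusted p = 0.113). In both ONX-0914 3 lay within the vehicle range and ONX-0914 1 and 4 lay above it. Pseudogene reads may come from their parent genes, which was not tested.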
